A study of Drosophila melanogaster with 17 samples.

Results

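The genes pst, CG6701, CG6357, CG10353, CG32032, sec31, CG7342, CG6656 and CG9344 were followed across mRNA-seq libraries of the larval central nervous system (CNS) of Drosophila melanogaster. They are 9 of the 13872 genes in the deposited count table, and they were selected on the measured difference between C24 and WT libraries and its spread between replicates. That difference is therefore given below as a description without a test. The CNS of many larvae, taken late in the third instar, was pooled for each library, and nothing in the sources ties a library to single animals.

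All larvae carried the elavGAL4 driver, which switches on UAS transgenes in postmitotic neurons. X7/C24 larvae (4 libraries, all of the third sequencing round) carried the driver, the UAS-Smn RNAi-C24 hairpin against Smn and 1 copy of the deletion Df(3L)SmnX7. C24 larvae (7 libraries, of which 4 belong to the pilot round and 3 to the second round) carried the driver and the same hairpin without the deletion. WT larvae (6 libraries, of which 3 belong to the pilot and 3 to the second round) carried the driver and the insertion UAS-PWIZ in place of the hairpin. Each genotype came from another paternal stock, so the transgene and the rest of that stock's genome cannot be told apart, and X7/C24 was sequenced in a round of its own, so genotype and round cannot be told apart there either.

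The protein encoded by Smn, whose loss in humans causes spinal muscular atrophy, works in a complex that loads rings of Sm proteins onto the small nuclear RNAs of the spliceosome. The listed genes do not form a pathway. Among them, pst (pastrel) is known in flies for natural variants that alter resistance to Drosophila C virus, CG9344 encodes a protein of the LSm ring that binds U6 small nuclear RNA, and sec31 encodes a subunit of the outer COPII coat, which carries cargo out of the endoplasmic reticulum. CG10353 belongs to the anoctamins, a family of calcium-activated channels and lipid scramblases, CG7342 to the organic cation type of membrane transporters, CG6357 to the papain-type cysteine peptidases and CG6656 to the histidine acid phosphatases. CG6701 is a predicted RNA helicase.

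The libraries held 7883183 to 28339670 counts (median 18432613), and levels are given as CPM, the count of a gene divided by the size of its library after TMM scaling. All 9 genes passed the filter on low counts in every comparison. The study set aside WT_1, WT_2 and C24_1 for tissue from outside the CNS and X7/C24_4 for duplicate reads. It also doubted WT_3 and C24_3, for a low level of the GAL4 transgene, and left WT_5 and C24_6 out of 1 of its comparisons for traces of other tissue. Summed levels of 4 neuronal markers (the fifth name on that list matched no gene of the table) reached 3719 to 4083 CPM in X7/C24_1 to X7/C24_3, 2731 to 3731 CPM in second-round C24 and 3388 to 3426 CPM in second-round WT. X7/C24_4 stood at 1952 CPM, C24_1 at 46.1 CPM, WT_1 at 327 CPM and WT_2 at 102 CPM. Unless another set is named, X7/C24 stands for X7/C24_1 to X7/C24_3, while C24 and WT stand for the second-round libraries, with 3 libraries in each group.

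Smn itself was at 30.1, 28.97 and 29.5 CPM in X7/C24, at 55.8, 66.2 and 55.4 CPM in C24 and at 67.2, 67.8 and 64.1 CPM in WT. X7/C24 lay below both other groups, whereas 1 of the C24 libraries lay within the WT range. The log2 fold change of Smn was -1.15 in X7/C24 over WT (SE 0.0558, edgeR adjusted p = 1.05e-05) and -0.99 in X7/C24 over C24 (SE 0.0948, edgeR adjusted p = 0.000782), against -0.16 in C24 over WT (SE 0.0952, edgeR adjusted p = 0.741). Fewer cells that express a gene and less RNA per cell cannot be told apart in such pooled tissue.

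Set beside second-round WT and C24, the 9 genes fell into 2 patterns. For pst, CG10353, CG32032, sec31, CG7342, CG6656 and CG9344, X7/C24 stood on the same side of WT as C24 and its difference from C24 did not pass the test. A difference that did not pass is not thereby shown to be absent. For CG6701 and CG6357, X7/C24 stood above C24 and toward WT. The split depends on the libraries used. Over pilot C24, pst, CG10353, sec31 and CG9344 passed as well. With X7/C24_4 included CG6701 did not pass over C24. In X7/C24 over WT, 8 of the 9 genes passed an adjusted p of 0.05, 4 of them higher and 4 lower, while 42.3% of all genes tested passed (21.2% higher and 21.2% lower). Groups did not overlap for 8 of the 9, beside 53.3% of all genes. Over C24, 2 of the 9 passed in X7/C24, both higher, beside 13.5% of all genes (7.59% higher), and groups did not overlap for 3 of the 9, beside 37.5% of all genes. These comparisons share their WT or C24 libraries with the contrast that chose the genes, so their values are set side by side and are not independent of it. Small p-values of the 9 genes in them were favoured by that choice.

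**Figure D1:**
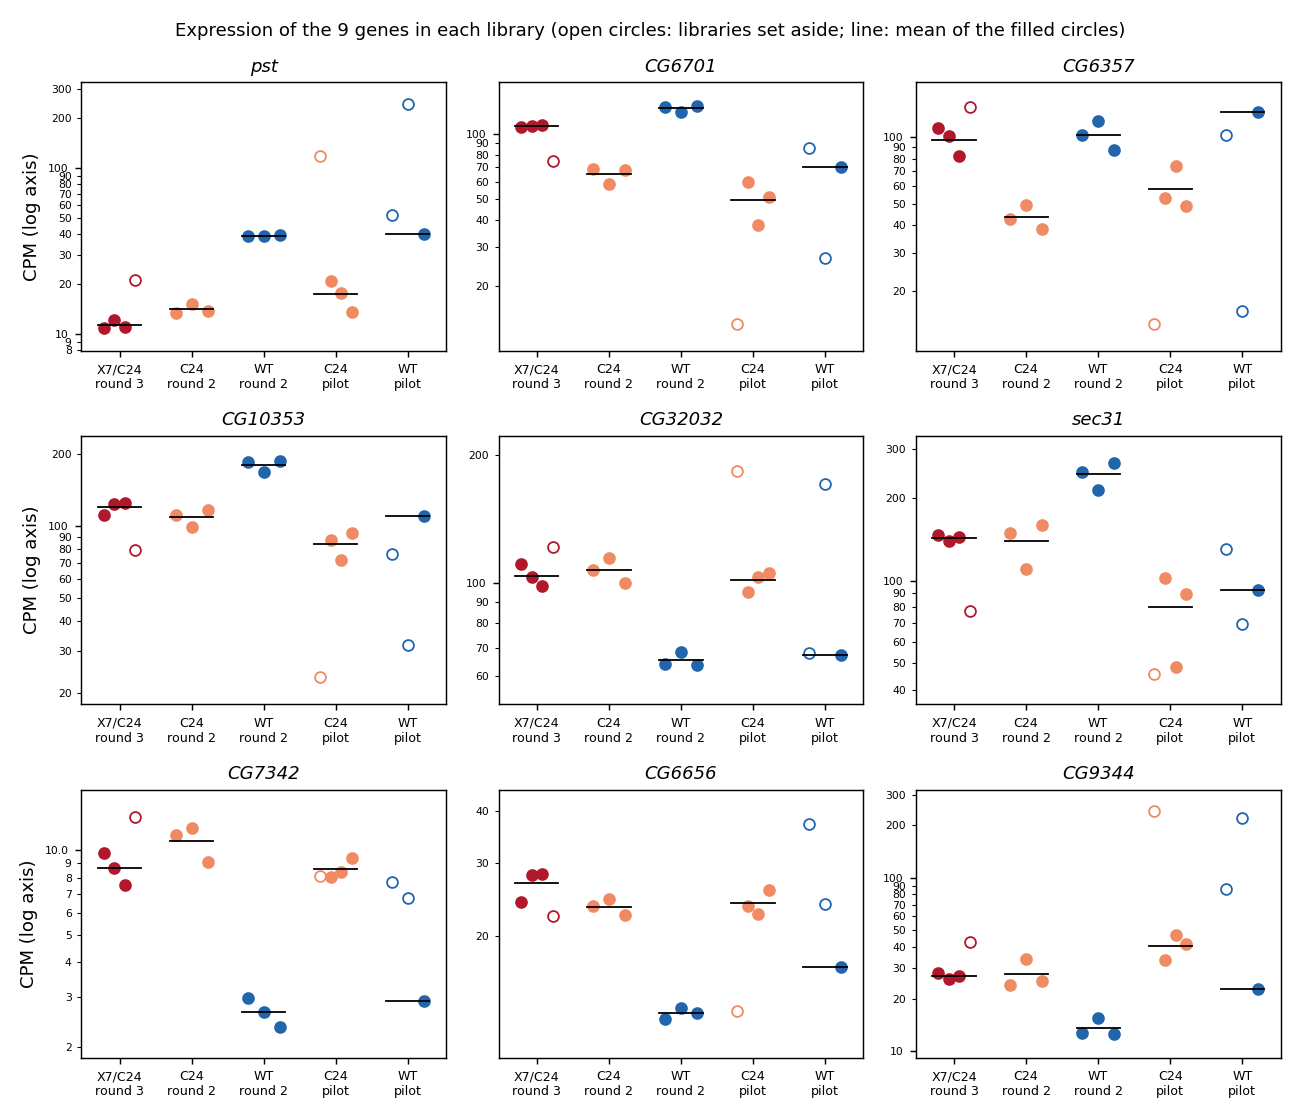
Level of each of the 9 genes in every library, in CPM on a log axis, with X7/C24 left of C24 and C24 left of WT for the later rounds and the pilot libraries at the right. Open circles are X7/C24_4, C24_1, WT_1 and WT_2, and filled circles the other libraries. Horizontal lines are the mean of the filled circles, which for pilot WT is WT_3 alone. The test of C24 over WT in the pilot also used C24_1, WT_1 and WT_2. For pst the X7/C24 and second-round C24 libraries lie between 10.9 and 15.3 CPM and the second-round WT libraries between 39.0 and 39.3 CPM, while for CG6357 X7/C24 lies with WT.

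The gene pst lies on chromosome 3L from 7357275 to 7360263 on the minus strand (FBgn0035770; this and all further positions are from the BDGP6 build, while the authors aligned to BDGP5). It was at 10.9, 12.1 and 11.1 CPM in X7/C24 and at 13.3, 15.3 and 13.8 CPM in C24, against 39.2, 39.0 and 39.3 CPM in WT. The WT libraries spanned less than 1 CPM and lay far above both other groups. The log2 fold change was -1.77 in X7/C24 over WT (SE 0.0635, 3.41-fold lower, edgeR adjusted p = 3.07e-06). These WT libraries also served to choose pst, so a small p here was favoured by the choice. C24 over WT was at -1.46 (SE 0.0862, 2.75-fold lower). X7/C24 also lay below each C24 library, by -0.31 (95% interval -0.53 to -0.08), which did not pass (edgeR adjusted p = 0.116). X7/C24_4 had 21.2 CPM, between the groups.

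CG9344, the LSm ring gene, lies on chromosome 2R from 20977056 to 20977600 on the plus strand (FBgn0034564). It was at 28.3, 25.9 and 27.3 CPM in X7/C24 and at 23.99, 33.8 and 25.5 CPM in C24, against 12.7, 15.6 and 12.5 CPM in WT. Every library with the hairpin lay above every WT library of these rounds. CG9344 was 2.02-fold higher in X7/C24 than in WT (log2 fold change 1.02, SE 0.0982, edgeR adjusted p = 0.000203), and C24 over WT was at 1.04 (SE 0.169). X7/C24 and C24 differed by -0.03 (95% interval -0.30 to 0.25, edgeR adjusted p = 0.909), and this sign turned without X7/C24_2, without C24_6 and with X7/C24_4 included. CG15650 overlaps CG9344 on the opposite strand, reads there could not be assigned by strand, and CG15650 averaged 0.393 CPM or less in each group.

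Other genes of the Sm and LSm type were read from a list of 16 genes, of which 15 were tested. The list holds Sm genes beside LSm genes, so not all of its proteins share a ring with CG9344. Over WT 8 of the 15 rose in X7/C24 and 1 fell, beside 21.2% higher and 21.2% lower over all genes. Their median log2 fold change was 0.31 (all genes -0.0038). LSm7 (log2 fold change 0.83, edgeR adjusted p = 0.00254), LSm3 (0.67, edgeR adjusted p = 0.0028) and SmG (0.60, edgeR adjusted p = 0.00133) were among those that rose, and SmD3 fell (-0.26, edgeR adjusted p = 0.00803). Over C24 1 of the 15 rose (SmB, 0.43, edgeR adjusted p = 0.0496) and 1 fell (LSm1, -0.57, edgeR adjusted p = 0.0221), beside 13.5% of all genes that passed. Over pilot C24 14 of the 15 fell and none rose (median -0.80), beside 22.2% lower and 20.4% higher over all genes. Round and genotype cannot be told apart in that comparison. In C24 over WT no gene of this list passed, with values from -0.14 to 0.38, below the 1.04 of CG9344.

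The gene sec31 lies on chromosome 2R from 8893613 to 8898798 on the plus strand (FBgn0033339). It was at 146, 139 and 143 CPM in X7/C24 and at 149, 109.8 and 159 CPM in C24, against 249, 214 and 267 CPM in WT. C24_6 was the lowest of these libraries, and in it the neuronal marker sum was also the lowest of the second round. That sum was 2731 CPM, against 3673 and 3731 CPM in the other C24 libraries, and its part in the result was not tested. The log2 fold change of sec31 was -0.75 in X7/C24 over WT (SE 0.0707, edgeR adjusted p = 0.000191) and -0.80 in C24 over WT (SE 0.142). X7/C24 over C24 was at 0.05 (95% interval -0.20 to 0.29, edgeR adjusted p = 0.826). Without C24_6 sec31 was at -0.66 in C24 over WT and at -0.09 in X7/C24 over C24.

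The other COPII genes tested lay closer to 0 than sec31 in X7/C24 over WT and in C24 over WT. Of 6 tested, 1 rose and 1 fell in X7/C24 over WT, namely sar1, the GTPase that starts coat assembly (log2 fold change 0.44, edgeR adjusted p = 0.00673), and Tango1, a cargo receptor at exit sites (-0.29, edgeR adjusted p = 0.0137). Over all genes 42.3% passed in X7/C24 over WT. None of the 6 passed in X7/C24 over C24, beside 13.5% of all genes, and their values there ran from -0.23 to 0.18. In C24 over WT they spanned -0.22 to 0.26. In X7/C24 over pilot C24 3 of the 6 rose and 1 fell, beside 20.4% higher and 22.2% lower over all genes. Their values there ran from -0.45 to 1.16 (Sec16), on both sides of the 0.83 of sec31. Round and genotype cannot be told apart in that comparison. The gene ana2, a centriole assembly factor, overlaps sec31 on the opposite strand, and reads were counted without strand, so reads from the overlap cannot be assigned to either gene. Its log2 fold change was -0.95 in X7/C24 over WT (SE 0.0871, edgeR adjusted p = 0.000173) and -0.56 in C24 over WT (SE 0.114).

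CG10353, the anoctamin, lies on chromosome X from 11877737 to 11887162 on the minus strand (FBgn0030349). It was at 112, 124 and 125 CPM in X7/C24 and at 112, 99.0 and 117 CPM in C24, against 186, 168 and 187 CPM in WT. The WT libraries lay above all libraries of the other groups, which overlapped each other. The log2 fold change was -0.57 in X7/C24 over WT (SE 0.0597, edgeR adjusted p = 0.000301), -0.72 in C24 over WT (SE 0.0821) and 0.15 in X7/C24 over C24 (95% interval -0.02 to 0.31, edgeR adjusted p = 0.286). None of the other 3 anoctamin genes tested passed in X7/C24 over WT or over C24, beside 42.3% and 13.5% of all genes. In C24 over WT these anoctamin genes lay between -0.10 and -0.06.

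CG7342, the transporter gene, lies on chromosome 3R from 19603375 to 19606475 on the plus strand (FBgn0038716). It was at 9.75, 8.62 and 7.50 CPM in X7/C24 and at 11.3, 12.0 and 9.11 CPM in C24, against 2.99, 2.66 and 2.34 CPM in WT. WT lay below every library of the other groups, with the lowest level among the 9 genes. CG7342 was 3.25-fold higher in X7/C24 than in WT (log2 fold change 1.70, SE 0.163, edgeR adjusted p = 0.000202), and C24 over WT was at 2.03 (SE 0.176, 4.07-fold higher). X7/C24 over C24 was at -0.32 (95% interval -0.64 to -0.01 from a normal approximation, edgeR unadjusted p = 0.079, edgeR adjusted p = 0.223).

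Of 8 other genes of the organic cation transporter type tested, none rose and 4 fell in X7/C24 over WT, beside 21.2% higher and 21.2% lower over all genes. Among the 4 the lowest value was that of CG6126 (log2 fold change -0.84, edgeR adjusted p = 0.0118), followed by CG14855 (-0.65, edgeR adjusted p = 0.000301) and Orct2 (-0.44, edgeR adjusted p = 0.00228). CG17751, CG17752 and CG16727, 3 genes from the list of this type that lie within 10 kb of CG7342, averaged 0.191 CPM or less in all 3 groups. Another neighbour, CG6231, was not on that list and lies 9549 bases from CG7342. It averaged 53.7 CPM in X7/C24, 46.3 CPM in C24 and 39.9 CPM in WT. In X7/C24 over WT CG6231 rose, as CG7342 did (log2 fold change 0.44, edgeR adjusted p = 0.0182). In X7/C24 over WT the 8 tested genes lay between -0.84 and 0.17, below CG7342.

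CG6656, the acid phosphatase gene, lies on chromosome 3R from 21875293 to 21877788 on the plus strand (FBgn0038912). It was at 24.04, 28.1 and 28.1 CPM in X7/C24 and at 23.5, 24.5 and 22.5 CPM in C24, against 12.6, 13.4 and 13.0 CPM in WT. X7/C24 and C24 overlapped each other and not WT. CG6656 was 2.09-fold higher in X7/C24 than in WT (log2 fold change 1.06, SE 0.0797, edgeR adjusted p = 8.14e-05), and C24 over WT was at 0.86 (SE 0.0877). X7/C24 over C24 was at 0.20 (95% interval 0.01 to 0.38 from a normal approximation, edgeR unadjusted p = 0.072, edgeR adjusted p = 0.211). Of 5 other histidine acid phosphatases tested, 1 rose (Mipp2, 0.22, edgeR adjusted p = 0.00826) and 1 fell (CG9451, -1.01, edgeR adjusted p = 0.003) in X7/C24 over WT. Over all genes 42.3% passed in that comparison.

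CG32032 lies on chromosome 3L from 9093053 to 9094856 on the plus strand (FBgn0043806). It was at 111, 103 and 97.9 CPM in X7/C24 and at 107, 114 and 99.5 CPM in C24, against 64.0, 68.3 and 63.9 CPM in WT. The groups with the hairpin covered nearly the same range. CG32032 was 1.60-fold higher in X7/C24 than in WT (log2 fold change 0.68, SE 0.0662, edgeR adjusted p = 0.000206), C24 over WT was at 0.72 (SE 0.0820), and X7/C24 over C24 at -0.04 (95% interval -0.20 to 0.13, edgeR adjusted p = 0.816).

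CG6701, the predicted helicase gene, lies on chromosome 2R from 13972984 to 13980165 on the minus strand (FBgn0033889). It was at 107, 109 and 109 CPM in X7/C24 and at 68.4, 58.5 and 68.3 CPM in C24, against 132, 126 and 133 CPM in WT. The groups formed 3 steps without overlap, with X7/C24 between C24 and WT and nearer to WT. CG6701 was 1.68-fold higher in X7/C24 than in C24 (log2 fold change 0.75, SE 0.0759, edgeR adjusted p = 0.0011) and stood at -0.25 in X7/C24 over WT (SE 0.0433, 1.19-fold lower, edgeR adjusted p = 0.00265), while C24 over WT was at -0.996 (SE 0.0761, 1.99-fold lower). The C24 and WT libraries also served to choose CG6701, so small p-values here were favoured by the choice. X7/C24_4, with 74.7 CPM, lay nearer to C24, and with it included neither X7/C24 comparison passed for this gene (log2 fold change 0.62 over C24, edgeR adjusted p = 0.116, and -0.37 over WT, edgeR adjusted p = 0.147).

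CG6357, the cysteine peptidase gene, lies on chromosome 2R from 13840053 to 13841743 on the plus strand (FBgn0033875). It was at 109.5, 100.8 and 82.0 CPM in X7/C24 and at 42.4, 49.5 and 38.3 CPM in C24, against 102, 118 and 87.7 CPM in WT. X7/C24 overlapped WT and lay above every C24 library. CG6357 was 2.25-fold higher in X7/C24 than in C24 (log2 fold change 1.17, SE 0.141, edgeR adjusted p = 0.00221), and X7/C24 over WT was at -0.06 (95% interval -0.34 to 0.21, edgeR adjusted p = 0.740). The C24 libraries also served to choose CG6357, so a small p over C24 was favoured by the choice. C24 over WT was at -1.23 (SE 0.147, 2.35-fold lower). In X7/C24_4 the level was 138 CPM, and with that library included CG6357 was the 1 gene of the 9 that still passed over C24 (edgeR adjusted p = 0.0475).

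Of 9 other papain-type peptidase genes 5 were tested in X7/C24 over C24, and 2 of them rose, beside 7.59% of all genes. CG10992 rose by a log2 value of 0.35 (edgeR adjusted p = 0.0489). CG11459 was at 0.843 CPM in X7/C24 and at 0.0339 CPM in C24, which is under the floor of 3 counts a library, so no fold is given (edgeR adjusted p = 0.00586). The peptidase gene CG6347 lies 690 bases from CG6357 on the same strand and was low, at 0.247 CPM in X7/C24 and 0.258 CPM in C24, against 1.09 CPM in WT. Its log2 fold change was -1.96 in X7/C24 over WT (SE 0.435, edgeR adjusted p = 0.00778), where CG6357 itself was near 0. CG6347 was at -2.07 in C24 over WT (edgeR adjusted p = 0.0561), beside -1.23 for CG6357.

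**Figure D2:**
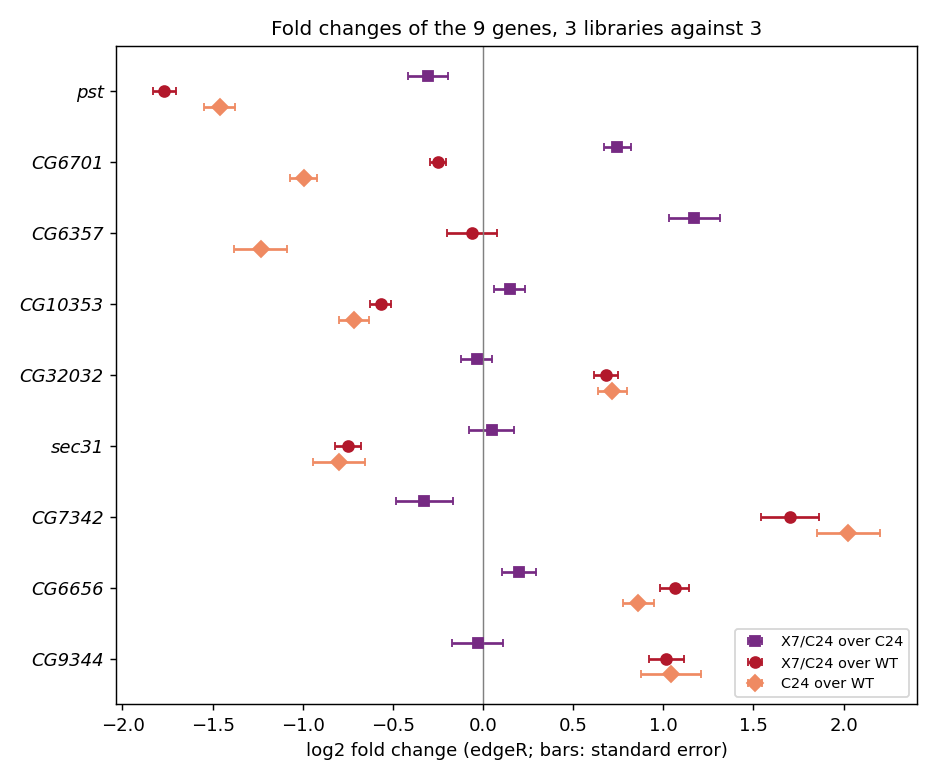
Log2 fold changes of the 9 genes from edgeR for X7/C24 over C24, X7/C24 over WT and C24 over WT, 3 libraries against 3 in each, with bars of 1 standard error. For CG6701 and CG6357 the X7/C24 over C24 values lie at 0.75 and 1.17, whereas for the other 7 genes they lie between -0.32 and 0.20.

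Cell type markers moved with X7/C24 in 1 list above all. The 5 ring gland genes (ecdysone synthesis) summed to 657 to 1005 CPM in X7/C24, against 93.2 to 143 CPM in C24 and 46.4 to 95.9 CPM in WT, and all 5 rose over both. X7/C24_4 had a ring gland sum of 89.5 CPM, and none of the 5 markers was at 0 in any library. Of the fat body markers 3 of 5 rose in X7/C24 over C24 (209 to 228 CPM, against 66.8 to 123.5 CPM), and none of 5 passed over WT. The part of these tissues in the levels of the 9 genes was not tested. In the pilot the ring gland sums were 331 to 1187 CPM in C24 and 811 to 1290 CPM in WT.

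The spread that went with the choice differed among the 9 genes. The SD within groups of the second round, pooled over C24 and WT on the log2 CPM scale, was 0.0533 for CG6656, 0.0717 for pst, 0.0806 for CG32032, 0.0966 for CG6701 and 0.108 for CG10353, all under the median of 0.143 over all genes tested. It was 0.189 for CG7342, 0.202 for CG6357, 0.224 for CG9344 and 0.232 for sec31. For these 4 genes the spread was larger than that of 64.7 to 73.9% of all genes, so the description as genes of little spread held for 5 of the 9. In C24 over WT 0.394% of all genes passed the test. Groups did not overlap for 13.7% of all genes and for all 9 genes, which were selected on this contrast.

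**Figure D3:**
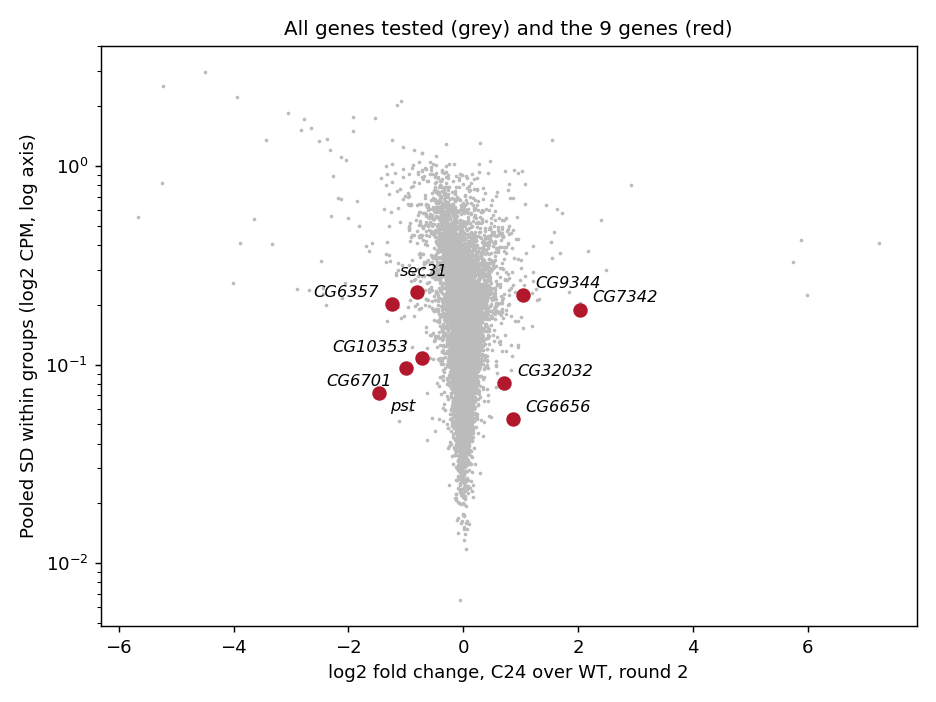
Log2 fold change of C24 over WT in the second round against the pooled SD within groups (log2 CPM, log axis) for all genes tested in grey and the 9 genes in red. The 9 genes lie at fold changes beyond 0.71 in either direction, with SDs between 0.0533 and 0.232, and other genes have larger fold changes with larger or similar spread.

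Compared per length, as RPKM, the order of the 9 genes was not the same in the 3 groups. In X7/C24 and C24 CG32032 was highest, at 96.8 ± 5.96 and 99.8 ± 6.90 RPKM (SD, n = 3 each). In WT CG6357 (71.3 ± 10.6), CG32032 (61.0 ± 2.36) and sec31 (58.6 ± 6.537 RPKM, SD, n = 3 each) headed the order within each other's spread. CG7342 was last in all 3 groups, at 3.94 ± 0.515 RPKM in X7/C24, 4.94 ± 0.691 RPKM in C24 and 1.22 ± 0.147 RPKM in WT. In X7/C24 and C24 its neighbour in the order was pst, at 4.33 ± 0.242 and 5.38 ± 0.386 RPKM, not separated from it beyond the spread, whereas in WT pst stood at 14.9 ± 0.0598 RPKM and CG6656 lay between them.

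The pilot round gave the same contrast, C24 over WT, in other libraries. Over its 7 libraries 0 of the 9 genes and 0% of 9586 genes passed with edgeR, 67 genes (0.699%) had an unadjusted p under 0.05, and DESeq2 called 1 gene. Genes given a 2-fold change in simulated counts were recovered in 0% there, so this fit has no power at that size. Groups did not overlap for 1 of the 9, beside 0.772% of all genes. That gene was CG7342, at 8.13, 8.05, 8.36 and 9.37 CPM in C24, against 7.73, 6.77 and 2.90 CPM in WT, with an exact permutation p of 0.0286, the smallest that 35 splits allow and unadjusted for 9 genes (two-sided). The fold changes of the pilot were -1.39 for pst (SE 1.01, 95% interval -3.38 to 0.60) and between -0.79 and 0.55 for the others, in all 2 above 0 and 7 below. With 1 library left out pst ran from -2.79 (without C24_1) to -0.083 (without WT_2). Exact permutation p-values of the other 8 genes lay between 0.229 (pst) and 0.857 (CG10353).

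The pilot libraries with tissue from outside the CNS held the extreme values of several of these genes. For pst the levels were 117, 20.8, 17.6 and 13.7 CPM in C24, against 52.3, 244 and 40.1 CPM in WT. C24_1 and WT_2 were the highest of their groups, and C24_2, C24_3 and C24_4 lay below every WT library. CG9344 was at 242, 33.4, 46.4 and 41.6 CPM in C24, against 85.6, 219 and 23.0 CPM in WT, again with C24_1 and WT_2 highest. CG6357 was at 14.2 CPM in C24_1 and at 16.3 CPM in WT_2, under every other library of the series. Muscle, fat body and midgut marker sums reached 2574, 4209 and 3891 CPM among the pilot C24 libraries and 1782, 4671 and 132.5 CPM among the pilot WT libraries, and their part in these levels was not tested.

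The other genes varied over the pilot as follows. CG6701 was at 13.3, 60.2, 37.8 and 51.1 CPM in C24, against 85.6, 26.8 and 70.0 CPM in WT. CG6357 was at 14.2, 52.9, 73.7 and 49.0 CPM in C24, against 102, 16.3 and 129 CPM in WT. For both genes C24_2, C24_3 and C24_4 lay below WT_1 and WT_3, while WT_2 lay below these C24 libraries. CG32032 was at 184, 94.9, 103 and 105 CPM in C24, against 68.0, 171 and 67.4 CPM in WT, so that C24_2, C24_3 and C24_4 lay above WT_1 and WT_3 and below WT_2. CG10353 was at 23.4, 87.4, 72.1 and 93.8 CPM in C24, against 76.3, 31.9 and 110.0 CPM in WT, and CG6656 at 13.1, 23.6, 22.6 and 25.8 CPM in C24, against 37.1, 23.9 and 16.8 CPM in WT. In CG10353 and CG6656 C24_2, C24_3 and C24_4 lay across or between the WT libraries.

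No pilot WT library was free of doubt in the study. WT_3 was the 1 not set aside for tissue from outside the CNS, and values against it, which also use C24_3, rest on libraries doubted for their GAL4 level and have no replicate check on the WT side. Its neuronal marker sum was 1927 CPM, against 2138 to 2804 CPM in C24_2 to C24_4. Its fat body sum was 202 CPM, against 18.4 to 97.8 CPM, and its ring gland sum 811 CPM, against 331 to 767 CPM. Its glia sum of 1203 CPM lay within their 1143 to 1299 CPM. The part of these tissues in the values against WT_3 was not tested. C24_2, C24_3 and C24_4 all lay on the same side of WT_3 as C24 lay of WT in the second round for 8 of the 9 genes, beside 24.8% of all genes tested. Among the 246 other genes with a second-round fold change at least as large as the smallest of the 9, the share was 51.6%. The median differences from WT_3 were -1.19 for pst, -0.45 for CG6701, -1.29 for CG6357, -0.33 for CG10353, 0.61 for CG32032, 1.49 for CG7342, 0.49 for CG6656 and 0.85 for CG9344 on the log2 scale. The exception was sec31, at 102, 48.7 and 89.5 CPM in C24_2 to C24_4, against 92.1 CPM in WT_3. In both genotypes the pilot level of sec31 lay below that of the second round.

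Set against pilot C24 in place of second-round C24, 6 of the 9 genes passed in X7/C24, 4 higher and 2 lower, beside 42.6% of all genes tested (20.4% higher and 22.2% lower). Groups did not overlap for 6 of the 9, beside 64.7% of all genes. CG6701 was 2.16-fold higher in X7/C24 than in C24_2 to C24_4 (log2 fold change 1.11, SE 0.160, edgeR adjusted p = 0.00865) and CG6357 1.66-fold higher (0.73, SE 0.185, edgeR adjusted p = 0.0229). CG10353 (0.50) and sec31 (0.83) rose as well, while pst (-0.62) and CG9344 (-0.58) fell. CG32032, CG7342 and CG6656 were at 0.03, -0.01 and 0.14 with 95% intervals from -0.16 to 0.21, from -0.31 to 0.29 and from -0.07 to 0.35. All 4 neuronal markers and 4 of 5 fat body markers rose in this comparison, while 2 of 5 glia, 2 of 5 salivary gland and 1 of 5 muscle markers fell and none of the 5 ring gland markers passed. Their part in the result was not tested, and round and genotype cannot be told apart in it. The count of 6 was 1 without X7/C24_1 or X7/C24_2, 0 without X7/C24_3 and 0 with X7/C24_4 included.

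The 9 genes lie on 4 of the large chromosome arms, and their neighbours were read to see whether they moved too. Within 10 kb of the 9 genes the annotation holds 75 other genes or elements, of which 65 are in the count table and 46 were tested in C24 over WT. Of these 46, 1 passed, beside 0.394% of all genes. Of 48 tested in X7/C24 over WT 23 passed (10 higher and 13 lower), beside 42.3% of all genes, and in X7/C24 over C24 5 of 46, beside 13.5%. The neighbour that passed in C24 over WT is CG13315, which lies 2021 bases from CG32032, and it was at 0.732 CPM in X7/C24 and 0.459 CPM in C24, against 7.51 CPM in WT (log2 fold change -3.29 in X7/C24 over WT, SE 0.272, edgeR adjusted p = 0.000114, and -4.01 in C24 over WT, SE 0.277). In X7/C24 over WT CG13315 fell where CG32032 next to it rose.

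The closest protein-coding genes to pst are CTCF, an insulator-binding protein, and sec63, of the endoplasmic reticulum translocon, at 562 and 298 bases. Their log2 fold changes in X7/C24 over WT were -0.49 (SE 0.0468, edgeR adjusted p = 0.000196) and -0.33 (SE 0.0472, edgeR adjusted p = 0.00119), the same direction as pst and a smaller size. Sh3beta (0.44, edgeR adjusted p = 0.00461) and akirin (0.39, edgeR adjusted p = 0.0079), which lie 4321 and 9580 bases from pst, rose. In C24 over WT CTCF and sec63 were at -0.36 and -0.22, and Sh3beta and akirin at 0.24 and 0.12. Copies of the Quasimodo transposable element are annotated 96 and 393 bases from pst in the assembly, and whether the stocks carry them was not analysed here.

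CG6357 and CG6701 are 131 kb apart on chromosome 2R, an interval that was chosen after the values had been seen. Of the 18 genes between them in the count table, 12 were tested in C24 over WT and none passed, beside 0.394% of all genes. Their values ran from -0.27 to 0.48 with a median of -0.02. Between X7/C24 and C24 13 were tested, of which CG30485 rose (0.813 CPM in X7/C24 and 0.156 CPM in C24, where it stood at about the floor of 3 counts a library, edgeR adjusted p = 0.00946) and CG42806 fell (-0.60, edgeR adjusted p = 0.0153). Over all genes 13.5% passed in that comparison. The median of the 13 was 0.01, against 1.17 for CG6357 and 0.75 for CG6701.

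**Figure D4:**
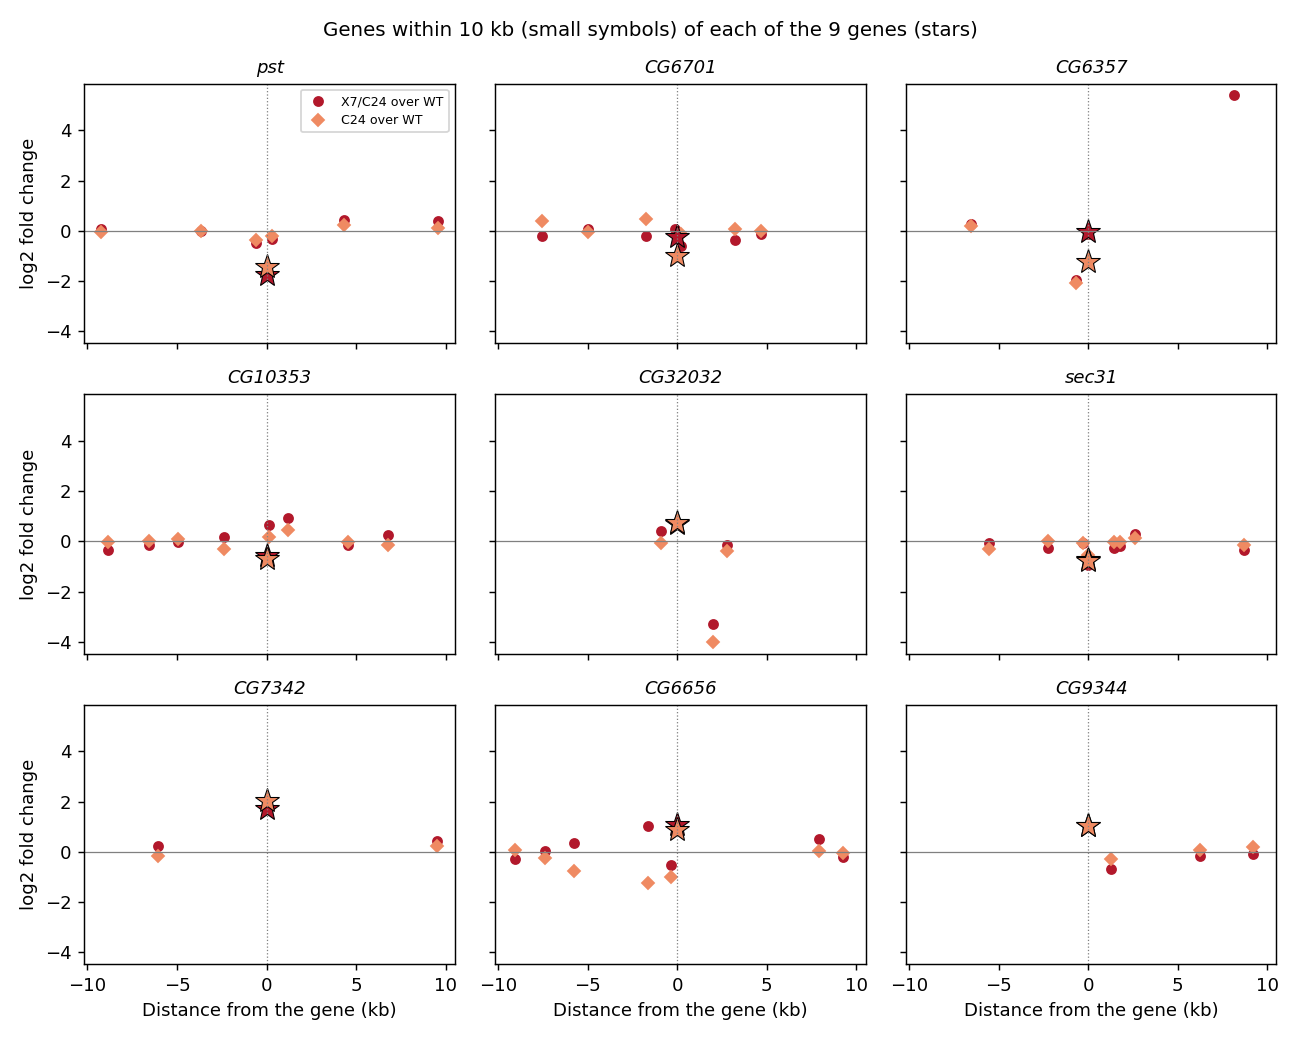
Log2 fold changes of the 9 genes (stars) and of tested genes within 10 kb of each (small symbols) against distance from the gene in kb, for X7/C24 over WT and C24 over WT. Around pst the neighbours lie between -0.49 and 0.44 while pst lies at -1.77 and -1.46, and CG13315 beside CG32032 lies at -3.29 and -4.01. The point at 5.39 beside CG6357 is CG30485, at 0.0126 CPM in WT and thus under the floor, so that its fitted value has no set size.

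Of 6 other genes of antiviral defence tested, 3 rose and 1 fell in X7/C24 over WT, beside 21.2% higher and 21.2% lower over all genes. None passed in X7/C24 over C24, beside 13.5% of all genes. Those that rose included vir-1, a gene induced by Drosophila C virus (log2 fold change 0.49, edgeR adjusted p = 0.0017), and r2d2, a partner of Dicer-2 (0.40, edgeR adjusted p = 0.00627), and armi, an RNA helicase of small RNA pathways, fell (-0.25, edgeR adjusted p = 0.00565). In C24 over WT the 6 genes lay between -0.07 and 0.25, whereas pst lay at -1.46.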

How the data were processed

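Poly(A) RNA of pooled larval CNS was sequenced as read pairs in 3 rounds. The authors filtered reads by quality, aligned them with BWA to BDGP5, removed duplicates with SAMtools and counted them per FlyBase gene with htseq-count (union mode, no strand). The deposited values are whole-number counts without normalization. Normalized tables of the series were not used.

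Counts were analysed in R 4.3.3 by edgeR 4.0.16. Libraries were scaled by TMM, low genes removed by filterByExpr, and quasi-likelihood p-values adjusted by Benjamini-Hochberg over all genes tested (threshold 0.05). DESeq2 1.42.0 served as an alternative, limma 3.58.1 was loaded with edgeR, and the study's own test was DESeq. Log2 CPM used a prior count of 2. The 95% intervals were made from the SE and the normal distribution. They leave out the few residual degrees of freedom that the test uses, so they are too narrow. On simulated counts with 200 genes changed 2-fold the test recovered 88.5% in X7/C24 over WT, 83.0% in X7/C24 over C24, 73.0% over pilot C24, 81.5% in C24 over WT and 0% in the pilot. Unchanged genes made up 10.6%, 8.79%, 9.32% and 8.94% of the calls in the first 4 of these. That is more than the threshold of 0.05 allows, so adjusted p-values just under it are weak. Genes were placed on BDGP6, and their exons summed, by FlyBase ID (13153 of 13872 genes, 94.8%). RPKM divided CPM by exon length. A count of 0 allows up to 3 counts, or 0.11 to 0.469 CPM per library, for counting error only.

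Groups came from the sample titles, since the genotype labels of C24 and X7/C24 carry running numbers that match no described line, and rounds and kit sets from the study. The kit list writes the X7/C24 libraries as C24X7, and their match by number is assumed. Libraries are separate pools, and p-values measure the spread between them. The 9 genes, the lists and the tests were chosen with earlier results of these data known. Named genes were the 9 genes, Smn, genes within 10 kb, the genes most correlated with pst and CG6701, and list members past the threshold. Other members named for their position or level were chosen after their values were seen. Alternatives were DESeq2, its size factors, no filter beyond 1 count, a kit term, a replicate block, other sets of libraries, each library left out in turn and, chosen after seeing the data, WT_5 and C24_6 left out together. Libraries of different groups that share a number were not taken as pairs. Their deviations from the group means correlated at -0.27 and -0.40 in the second round, at -0.12, -0.88 and 0.80 in the pilot and at 0.10 and -0.24 between X7/C24 and pilot C24. So few correlations, of deviations from means of few libraries, cannot decide whether the numbers pair libraries. Sequences were not used here.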

Additional observations from a re-analysis of the deposited data

Results flagged for a closer look

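Levels in single libraries that stood far from the rest of their group, by the gap to the next library over the group's range (Dixon's limit), were found in 15 of 36 groups examined. Chance gives about 1 in 20 for a group taken alone. The groups share libraries, and the pilot C24 set lies within the set of all C24 libraries. They are therefore not independent, and 15 of 36 cannot be set against that rate. All lay in C24_1, WT_2 or X7/C24_4, which the study had set aside.

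In C24_1 the levels were 117 CPM for pst (next 20.8 CPM), 184 CPM for CG32032 and 242 CPM for CG9344, each far from the other C24 libraries both over all 7 and among the 4 of the pilot, and 13.1 CPM for CG6656 over all 7. In WT_2 the levels were 244 CPM for pst (next 52.3 CPM), 171 CPM for CG32032 (next 68.3 CPM), 219 CPM for CG9344 and 16.3 CPM for CG6357 among the 6 WT libraries.

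X7/C24_4 stood apart from the other 3 X7/C24 libraries with 21.2 CPM for pst, 74.7 CPM for CG6701, 77.5 CPM for sec31 and 42.5 CPM for CG9344. It lay outside the range of those 3 for all 9 genes. Its neuronal marker sum was 1952 CPM, against 3719 to 4083 CPM, and the part of this in the levels was not tested.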

How the results depend on the processing

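In X7/C24 over WT 8 of the 9 genes passed under every alternative run except the one with X7/C24_4 included, where 7 passed. The number of all genes past the threshold was 761 with X7/C24_4 included and 2846 to 4792 when 1 library was left out (4087 otherwise), and CG6357, near 0, turned to 0.070 with X7/C24_4 and spanned -0.18 to 0.062 with 1 library left out. In X7/C24 over C24 all genes past the threshold were 752 with the kit term, 33 with X7/C24_4 and 461 (without X7/C24_3) to 2707 (without C24_6) with 1 left out (1280 otherwise). With X7/C24_4 1 of the 9 passed, and 3 genes near 0 turned sign, CG32032 to 0.018, sec31 to -0.13 and CG9344 to 0.15. With 1 library left out 2 of the 9 always passed, CG32032 spanned -0.088 to 0.027, sec31 -0.088 to 0.15 and CG9344 -0.13 to 0.15.

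Against pilot C24 all genes past the threshold were 6 with X7/C24_4 and 161 to 5121 with 1 left out (4036 otherwise), and the 9 genes gave 0 with X7/C24_4 and 0 to 6 with 1 left out. CG7342 was at 0.0083 with DESeq2, 0.015 with its size factors and 0.0087 without the filter, at 0.16 with X7/C24_4, and at -0.10 to 0.093 with 1 left out, and CG32032 at -0.025 to 0.077. In the pilot DESeq2 called 1 gene, and 2 genes passed without WT_1, WT_2 and C24_1, when CG6656 turned to 0.50 and CG9344 to 0.80. CG10353 turned to 0.18 with the kit term. With 1 left out 0 genes passed, and pst spanned -2.79 to -0.083, CG6357 -1.27 to -0.30, CG6701 -0.93 to -0.26, sec31 -0.64 to -0.19, CG7342 0.23 to 0.80, CG10353 -0.42 to 0.36, CG32032 -0.089 to 0.87, CG6656 -0.51 to 0.054 and CG9344 -1.52 to 0.79. In C24 over WT of the second round 112 genes passed with DESeq2, 11 with the kit term and 5 to 27 with 1 left out (37 otherwise). Without WT_5 and C24_6 together, an alternative chosen after seeing the data, 214 passed, and all 9 genes kept their direction. The causes were not tested.

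The replicate number was also fitted as a block, although it was not taken to pair the libraries. With it 14 genes passed in C24 over WT of the second round and 0 in the pilot, where CG9344 turned to 0.13. In X7/C24 over pilot C24 1081 passed, with 1 of the 9 (CG6701, log2 fold change 1.19, edgeR adjusted p = 0.0335). X7/C24 and WT, and X7/C24 and second-round C24, share no replicate numbers, so no block could be fitted there. Of the alternative values for single genes that passed at first, 148 kept the call and 34 lost it. Of those for genes that had not passed, 211 kept their direction and side of the threshold and 30 turned sign. Of the values of C24 over WT in the second round, which carry no call, 106 moved by less than the spread and 2 by more.

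The precision is limited by 3 libraries a group, by rounds that coincide with genotype for X7/C24, and by a pilot in which every WT library was doubted by the study.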

Other observations

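The genes whose levels followed pst most closely over 14 libraries (without WT_1, WT_2 and C24_1), among 8305 genes, were Adgf-D, an adenosine deaminase-related growth factor (Pearson's r = 0.93), Hsc70-5, a mitochondrial chaperone (r = 0.93), and Cyp12b2, a mitochondrial cytochrome P450 (r = 0.92). For CG6701 they were ltl (r = 0.95), CG6602 (r = 0.93) and msl-2, of the dosage compensation complex (r = 0.93). These are descriptions over libraries that share rounds and genotypes. Adgf-D averaged 12.7 CPM in X7/C24, 17.5 CPM in C24 and 27.6 CPM in WT, the order of pst with smaller steps. For msl-2 the means were 127 CPM in X7/C24, 106 CPM in C24 and 136 CPM in WT, the order of CG6701 with smaller steps.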
